A study of Mus musculus with 31 samples.

Results

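The genes described here encode the proteins of the cytosolic ribosome. They were taken by symbol alone: names made of Rpl or Rps with a number, together with Rplp0, Rplp1, Rplp2 and Rpsa, with names that mark pseudogenes left out. The rule found 85 of the 38283 genes listed in the deposited tables, 51 named for the large subunit and 34 for the small one. Of these, 77 are the standard genes and 8 are paralogues or copies (Rpl22l1, Rpl39l, Rpl3l, Rpl10l, Rps27l, Rps4y2, Rpl7l1 and Rps12l1). The annotation (GENCODE M21, build GRCm38) gave 83 as protein coding, and Rps12l1 and Rps4y2 as pseudogenes. In every comparison 81 members reached the level needed for testing, a mean of 1 FPKM. The remaining 4 were low everywhere: Rpl10l was listed at 0 in all 21 libraries, Rpl39l in 18, Rpl3l in 15 and Rps12l1 in 10.

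RNA was sequenced from cells of C57BL/6 mouse pancreas at postnatal day 2, sorted by flow cytometry into a YFP-positive mesenchymal and a YFP-negative non-mesenchymal fraction. Every animal, control or mutant, carried 1 copy of Nkx3.2-Cre, a recombinase knocked in at a gene of the pancreatic and gut mesenchyme. Genotypes were therefore meant to change in mesenchymal cells, with the non-mesenchymal fraction as the neighbouring tissue. One model deletes Igf2, an imprinted growth factor, and compared mutants (Igf2+/fl; Nkx3.2Cre/+; 3 non-mesenchymal libraries) with controls (Igf2+/+; Nkx3.2Cre/+; 4 non-mesenchymal libraries). The other deletes the control region that represses Igf2 next to the H19 gene, described by the series as a means of raising Igf2, and compared mutants (H19DMDfl/+; Nkx3.2+/Cre; 4 mesenchymal and 4 non-mesenchymal libraries) with controls (H19DMD+/+; Nkx3.2+/Cre; 3 mesenchymal and 3 non-mesenchymal libraries). Controls were littermates. The mesenchymal libraries of the Igf2 model were not analysed here, which leaves its deletion unchecked. Nothing states that replicates came from separate animals, so p-values measure only the spread between these libraries. Libraries of each model carry their own prefix in the library name and stand in their own table. A difference between models therefore cannot be told apart from one between these sets of libraries, and none was tested.

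FPKM (fragments of a gene scaled by transcript length and by the mapped fragments of the library) is a relative level per length, and the absolute depth behind it is unknown. In these bulk samples fewer cells of a type and less RNA per cell cannot be told apart. The fractions matched their labels: 9 of 9 tested mesenchymal markers were higher in mesenchymal cells, by a median log2 difference of 6.41 in controls and 6.11 in mutants. In both genotypes 9 of 9 acinar and 10 of 10 endocrine markers were lower. Of other lists, 4 of 6 ductal, 5 of 6 leukocyte, 3 of 5 erythroid and 3 of 3 neural markers were called lower in controls. In mutants these were 6 of 6, 5 of 6, 4 of 5 and 4 of 5. The part of these lists in the differences between fractions was not tested. Endothelial markers were also on the mesenchymal side: all 6 were positive, with medians of 1.34 in controls (3 past the threshold) and 1.44 in mutants (4 past the threshold), and their part in the differences between fractions was not tested. In H19DMD mesenchymal mutants H19 averaged 700.3 ± 123 FPKM (SD, n = 4) against 2446 ± 8.11 FPKM in controls (SD, n = 3), a log2 difference of -1.82 (limma adjusted p = 0.0458). Igf2 differed there by a log2 value of 0.87, with no overlap between groups, and missed the threshold (adjusted p = 0.927). In H19DMD non-mesenchymal cells Igf2 averaged 108 ± 50.9 FPKM in mutants (SD, n = 4) and 48.2 ± 4.38 FPKM in controls (SD, n = 3). That log2 difference was 1.00, with overlap (limma adjusted p = 0.894). The mesenchymal minus the non-mesenchymal mutant effect on Igf2 was -0.14, so its change was not confined to mesenchymal libraries. The source of the non-mesenchymal value was not tested.

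Each cytosolic ribosome joins a small subunit, which binds the mRNA and reads its codons, to a large subunit, which forms the peptide bonds. Every standard protein is needed at about one copy per ribosome, except the acidic stalk proteins Rplp1 and Rplp2, which sit in several copies on Rplp0 and help recruit elongation factors. Most mRNAs of the family begin with a cytosine followed by a run of pyrimidines (a 5′ terminal oligopyrimidine tract), through which their translation responds to mTORC1, a kinase complex downstream of insulin and IGF signalling. That control acts on translation, which was not measured here. Acinar and endocrine cells of the pancreas make large amounts of secreted protein and are rich in ribosomes.

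The sequences below show the letters around the annotated start of members on which later results turn, with and without a run of pyrimidines. Each is a 30-base window from 15 bases before to 15 bases from the annotated start, 5′ to 3′, from RefSeq (GRCm38.p6), and capitals mark runs of at least 6 C or T anywhere in the window, which need not be the 5′ terminal tract. The run length and the genes shown were chosen after values were seen. The first 5 are members lower in mesenchymal cells of H19DMD mutants, followed by Rplp0, which was also lower there and has no run, then the most abundant member, Rps27, and 3 members that were not lower there.
Rpl18: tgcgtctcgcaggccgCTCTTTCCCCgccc, chr7:45718056-45718085, plus strand
Rpl15: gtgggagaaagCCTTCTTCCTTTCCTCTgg, chr14:18270972-18271001, minus strand
Rps9: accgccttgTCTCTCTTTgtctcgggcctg, chr7:3704026-3704055, plus strand
Rps10: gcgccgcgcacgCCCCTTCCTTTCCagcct, chr17:27635230-27635259, minus strand
Rps18: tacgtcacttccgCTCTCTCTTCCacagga, chr17:33955651-33955680, minus strand
Rplp0: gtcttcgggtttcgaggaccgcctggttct, chr5:115559452-115559481, plus strand
Rps27: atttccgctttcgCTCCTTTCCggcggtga, chr3:90213634-90213663, minus strand
Rpl27a: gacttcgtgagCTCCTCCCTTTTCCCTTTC, chr7:109519180-109519209, plus strand
Rpl41: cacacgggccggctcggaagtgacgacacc, chr10:128549154-128549183, minus strand
Rps28: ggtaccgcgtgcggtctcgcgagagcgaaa, chr17:33824548-33824577, minus strand

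RefSeq promoter entries matched 63 members with 75 promoters. A run of at least 6 C or T on the gene's own strand was present in the window of 39 of these promoters (52.0%), against 29.2% of all 32851 promoters in the table. On the opposite strand the same run was present in 7 (9.33%) of the members' windows against 32.4% of all. Of the 14 members called lower in mesenchymal cells of H19DMD mutants, 10 had an entry and 6 of these a run, against 32 of the other 53 matched members. A match describes the letters of the window and is not a mapped start or a regulatory site.

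Ribosomal protein mRNAs were among the most abundant in every library. Together they made up 5.01% of the FPKM of all protein-coding genes in H19DMD control mesenchymal cells, 5.32% in mutant mesenchymal cells, 4.83% in control and 5.84% in mutant non-mesenchymal cells. In non-mesenchymal cells of the Igf2 model they made up 6.81% in controls and 7.12% in mutants. All 77 standard members were in the top 5% of protein-coding genes in the Igf2 table, and 76 in the H19DMD table, where Rpsa stood at percentile 94.0. The large-to-small ratio of summed FPKM stayed close between groups, with group means from 1.18 in Igf2 mutants to 1.33 in H19DMD control mesenchymal cells.

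Despite equal copies in the ribosome, the mRNAs differed widely in level. Among standard members the mean over libraries spanned 25.5-fold in the H19DMD table and 29.1-fold in the Igf2 table, around medians of 223 and 319.9 FPKM. The top 6 members held 20.3% and 22.0% of the summed level. The order of members was much alike in all libraries, with a Spearman rho of their levels from 0.789 to 0.981 over 210 library pairs (median 0.913), which share genes, lengths and method.

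Rps27 (chromosome 3, 90212522 to 90213651, minus strand), a small-subunit zinc-finger protein, was the highest standard member in 20 of 21 libraries, at a mean of 1136 FPKM in the H19DMD table and 2184 FPKM in the Igf2 table. The exception was the third H19DMD control mesenchymal library, where Rpl4 was highest at 435 FPKM. Rpl41, the shortest protein of the family, averaged 749 and 1218 FPKM, and Rpl32 averaged 714 and 1099.6 FPKM. The next places were held by Rpl10 and Rpl4 in the H19DMD table and by Rps29, Rplp2 and Rpl13a in the Igf2 table.

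Rpsa, the small-subunit protein also known as the laminin receptor, was the lowest standard member in 16 of 21 libraries. It averaged 44.5 FPKM in the H19DMD table and 74.9 FPKM in the Igf2 table. The low end of the H19DMD table also held Rpl29 (56.1 FPKM), Rpl27a (73.2 FPKM), Rps7 (75.9 FPKM) and Rpl15 (78.0 FPKM). Reads of Rpsa and of other members can fall on processed copies elsewhere in the genome. The 219 rows named as ribosomal protein pseudogenes summed to 0.42 to 1.93% of the family level per library, and how reads that fit several copies were assigned is not given in the sources used here.

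**Figure D1:**
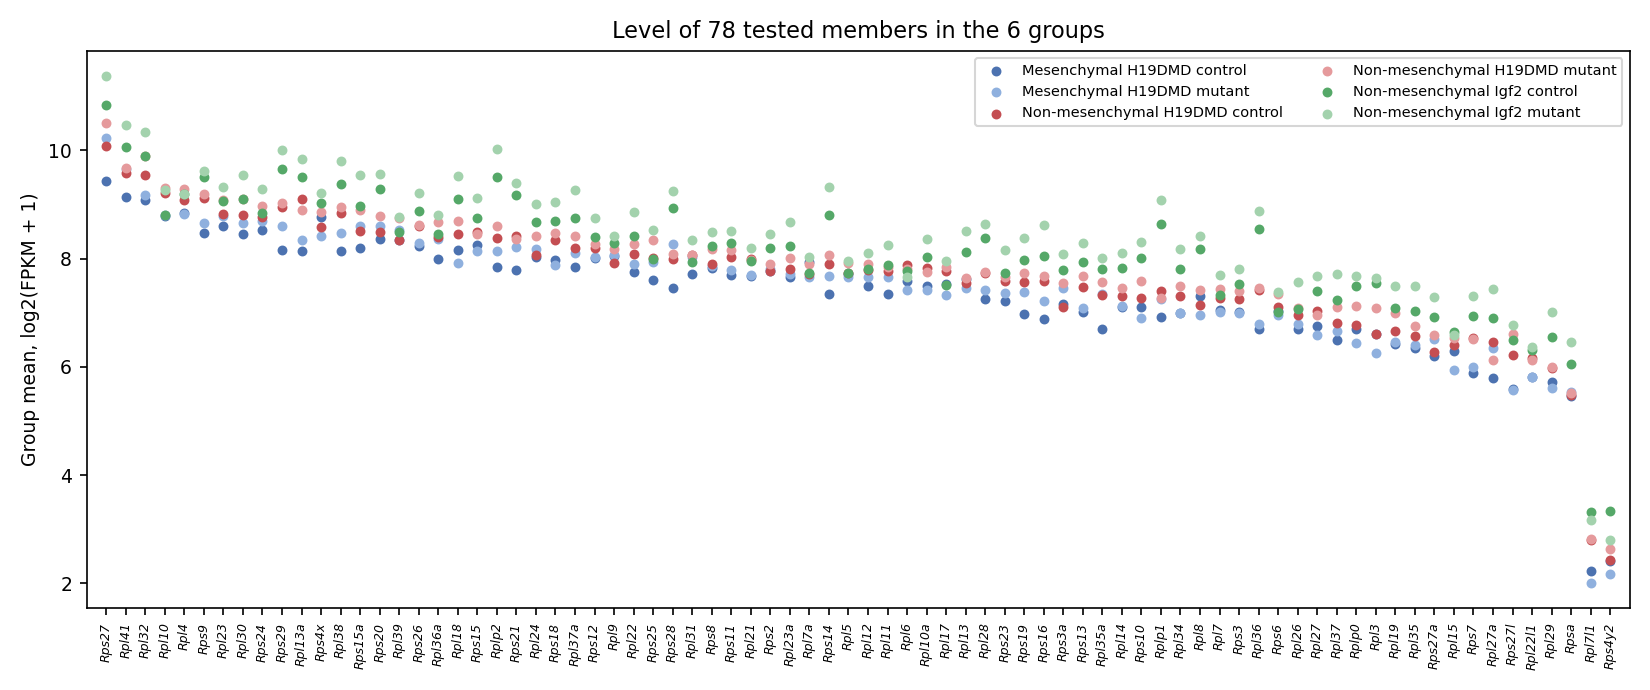
Group mean of 78 tested members as log2(FPKM + 1), ordered by mean level in the H19DMD table, with 1 point for each of the 6 groups. Rps27, Rpl41 and Rpl32 are at the high end, Rpsa is the lowest standard member, and the copies Rpl7l1 and Rps4y2 lie far below the rest.

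Standard members also differed in how steady they were. Averaged over the 6 groups, the coefficient of variation between replicates was lowest for Rpl4 (9.92%), a core protein of the peptide exit tunnel, and Rps9 (11.8%). It was highest for Rps27 (30.4%) and Rpl13a (30.0%). The median over members was 13.4% in H19DMD mutant and 25.0% in H19DMD control non-mesenchymal cells, and 20.1% and 24.4% in mutant and control mesenchymal cells. In the Igf2 model it was 14.5% in controls and 18.4% in mutants.

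Much of that spread was shared by the whole family within single libraries. In the first H19DMD control non-mesenchymal library 80 of 81 tested members were below their group mean, with a median log2 deviation of -0.42. In the third H19DMD control mesenchymal library 77 of 81 were below it (median deviation -0.35), and in the third Igf2 control 78 of 81 (median deviation -0.21). In the other direction, 79 members were above the group mean in the first H19DMD mutant mesenchymal library (median deviation 0.33) and 80 in the second Igf2 mutant (median deviation 0.25). Opposite the low controls, 78 and 73 members were above the mean in the other H19DMD control non-mesenchymal libraries (0.22 and 0.21), and 74 in the first H19DMD control mesenchymal library (0.29). These counts were made after values were seen. The first H19DMD control non-mesenchymal library was also the lowest of its group in the median of mitochondrial ribosomal protein genes and of all protein-coding genes. These libraries weigh on every mutant comparison below, so family medians and some members are given with and without them. Counts of positive members, of members without overlap and of unadjusted p under 0.05 are given with all libraries only.

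**Figure D2:**
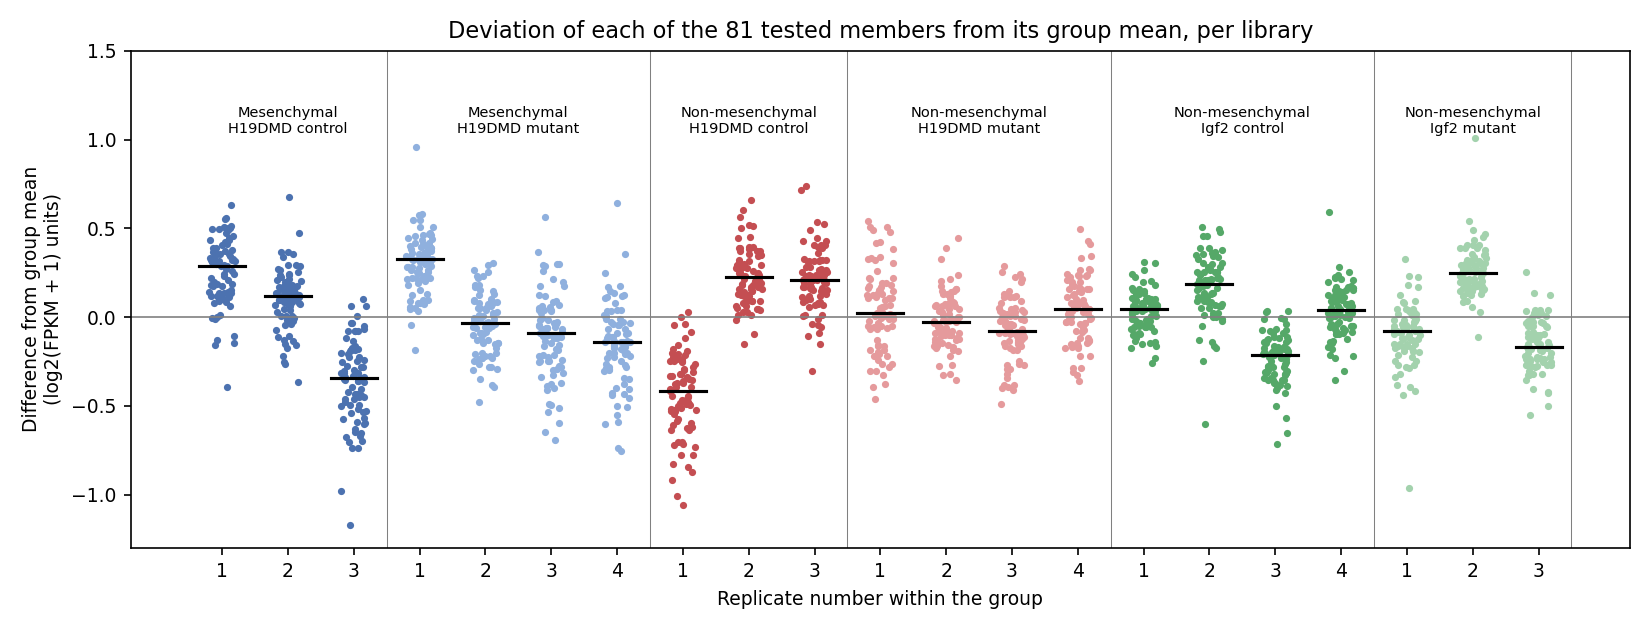
Deviation of each tested member from its group mean (log2 scale) in each of the 21 libraries (points), with the median of the members (black bars). In several libraries nearly the whole family lies on one side, most in the first H19DMD control non-mesenchymal library (median deviation -0.42), the third H19DMD control mesenchymal library (-0.35) and the first H19DMD mutant mesenchymal library (0.33).

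The summed level was compared between the groups as deposited. It was 16820 ± 3832 FPKM (SD, n = 3) in H19DMD control mesenchymal cells, where libraries had 20010, 17881 and 12568. It was 18823 ± 2898 FPKM (SD, n = 4) in mutant mesenchymal cells, with libraries at 23036, 18015, 17830 and 16412. Both groups of mesenchymal libraries overlapped. Control non-mesenchymal cells had 21226 ± 5349 FPKM (SD, n = 3), from 15053, 24478 and 24147, and mutant non-mesenchymal cells 24071 ± 1223 FPKM (SD, n = 4), from 25685, 23238, 23016 and 24346. Each neighbouring pair in this order overlapped, and the order depended on scaling: with libraries scaled to their protein-coding sum the means were 19209 and 20419 FPKM in control and mutant mesenchymal cells, and 18537 and 22387 FPKM in control and mutant non-mesenchymal cells. In the separately scaled Igf2 table, controls had 28610 ± 3605 FPKM (SD, n = 4), from 28746, 32874, 24053 and 28769, and mutants 36744 ± 5707 FPKM (SD, n = 3), from 35225, 43057 and 31950, so that 1 control lay above the lowest mutant.

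**Figure D3:**
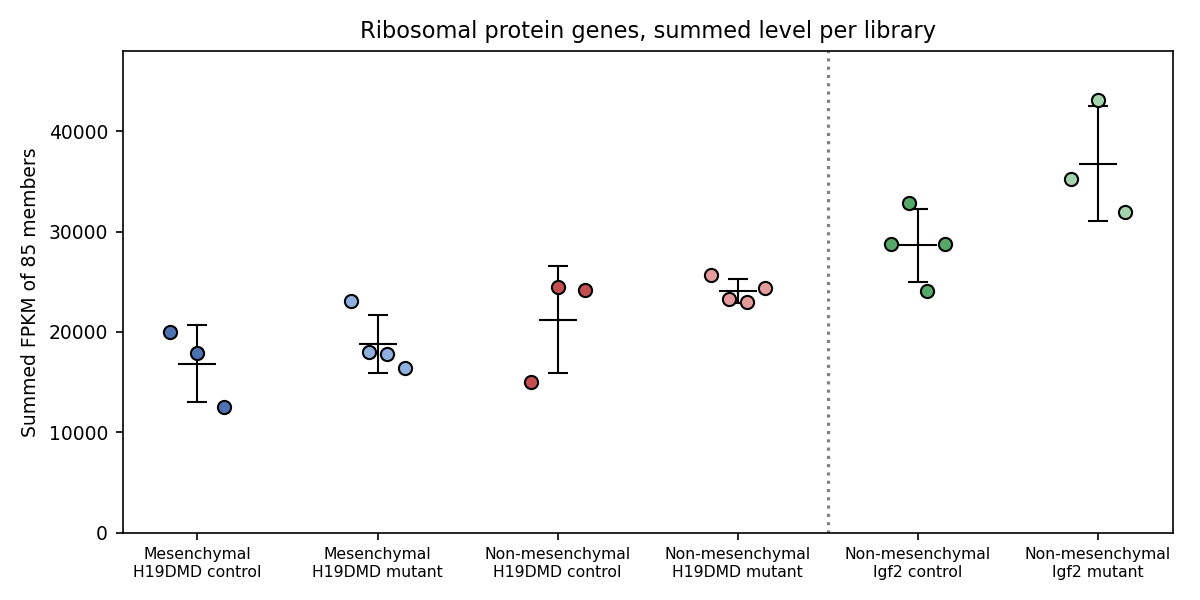
Summed FPKM of the ribosomal protein genes in each library (points) with the mean and SD of each of the 6 groups. Replicates spread widely, from 12568 to 20010 in H19DMD control mesenchymal cells, and neighbouring groups overlap.

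The comparison of Igf2 mutants with controls in non-mesenchymal cells asked whether the loss of a mesenchymal growth factor is accompanied by a change in the neighbouring tissue. No ribosomal protein gene passed the test. The count was 0 of 81 members (limma, Benjamini-Hochberg adjusted, two-sided), against 0.0631% of all 17441 genes tested, and the smallest adjusted p of a member was 0.919. At an unadjusted p under 0.05 there were 15 members of 81, against 5.28% of all genes. Log2 differences, mutant minus control, were positive for 76 of 81 members with a median of 0.35, against a median of -0.03 and 47.1% positive over all genes. The groups did not overlap for 19 members, all of them higher in mutants (2.65% of all genes), and for none that was lower (3.37% of all genes). Of the 19, 11 belong to the large and 8 to the small subunit. For 74 members the 95% interval excluded a 2-fold difference.

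Among the large-subunit proteins, Rpl27a (chromosome 7, 109519147 to 109522367, plus strand) had 134, 138, 69.4 and 133 FPKM in controls and 173, 175 and 168 FPKM in mutants. Its log2 difference of 0.58 ± 0.26 (SE) was the most positive of the family, with a low value in 1 control (exact permutation p = 0.0571, two-sided). Rpl32 and Rpl41 differed by 0.45 and 0.44 on the log2 scale. The most negative standard member was Rpl6 at -0.13, whose sign changed with 1 library left out (-0.28 to 0.093).

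Of the acidic stalk proteins, Rplp1 had 416, 413, 349 and 411 FPKM in controls and 486, 611 and 532 FPKM in mutants, a log2 difference of 0.45 ± 0.15 (SE; exact permutation p = 0.0286, two-sided, the smallest 4 against 3 libraries can give). Rplp2 had 732, 881, 578 and 734 FPKM in controls against 974, 1174 and 972 FPKM in mutants, a log2 difference of 0.52 ± 0.19 (SE). Rplp0, on which both sit, had 184, 181, 146 and 206 FPKM against 182, 222 and 206 FPKM, and these overlapped at a log2 difference of 0.19 ± 0.16 (SE). The limma adjusted p of each was 0.919.

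In the small subunit, Rps16 had 258, 336, 235 and 233 FPKM in controls and 402, 431 and 345 FPKM in mutants, without overlap (log2 difference 0.57 ± 0.18, SE). Rps15a differed by 0.57 and Rps27 by 0.50. Rps6, the protein phosphorylated by S6 kinase below mTORC1, had 137, 144, 111 and 122 FPKM against 162, 201 and 137 FPKM, with overlap (0.37 ± 0.18, SE). Rpsa differed by 0.39 ± 0.23 (SE). The extremes below 0 were the copies Rps4y2 (-0.70; 2.07 to 13.7 FPKM over the libraries of that model) and Rpl7l1 (-0.16; 5.63 to 10.7 FPKM). With 1 library left out Rps4y2 ranged from -1.21 to -0.22, Rps15a from 0.37 to 0.70 and Rpl27a from 0.34 to 0.67.

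The size of the shift depended on what the libraries were scaled to. With each library scaled to its summed protein-coding FPKM the median of the family was 0.05, and with single libraries left out it was 0.21 to 0.42. The acinar list differed between the same samples: it took 17.8 to 18.8% of the protein-coding FPKM in mutants and 7.22 to 10.3% in controls, with a median log2 difference of 1.14, 9 of 10 genes positive and none past the threshold. Leukocyte markers were positive in 6 of 6 (median 0.48), erythroid ones in 0 of 6 (-0.53) and neural ones in 0 of 5 (-0.26). Endocrine markers were positive in 7 of 10 (0.28) and endothelial ones in 4 of 6 (0.10). Ductal markers were positive in 2 of 6 (-0.18) and mesenchymal ones in 1 of 7 (-0.10). None of these passed the threshold. Whether these cell types have a part in the ribosomal protein values was not tested. Short abundant protein-coding genes outside the family (coding length up to 462 nt, mean log2 level of at least 6, both chosen after values were seen) had a median of 0.19 over 153 genes with 76.5% positive, and long abundant ones -0.03 over 716 genes with 45.7% positive. The part of length was not tested. The large-subunit median was 0.35 and the small-subunit median 0.34. For translation factors the median was 0.01, for mitochondrial ribosomal proteins 0.06 and for ribosome biogenesis genes -0.05, each with none past the threshold. For the 4 cytosolic ribosomal proteins with other names it was 0.32, with none past the threshold either.

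In H19DMD mesenchymal cells, where the control region itself was deleted, again 0 of 81 members passed the test, against 0.0694% of all 15856 genes. The smallest adjusted p was 0.927, and 2 members had an unadjusted p under 0.05 (4.76% of all genes). The median log2 difference, mutant minus control, was 0.08, against -0.07 over all genes, and 55 members were positive. It was 0.16 with median-ratio scaling and 0.00046 with libraries scaled to their protein-coding sum. Endocrine markers were positive in 1 of 7 (median -0.48) and mesenchymal ones in 2 of 9 (-0.06), none past the threshold, and their part was not tested. The groups did not overlap for 2 members that were higher (Rps28 and Rpl27a; 1.62% of all genes) and 1 that was lower (Rpl3; 3.77% of all genes). For 65 members the 95% interval excluded a 2-fold difference.

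Rps28, a small-subunit protein near the mRNA exit, had 226, 191 and 111 FPKM in controls and 349, 257, 350.5 and 277 FPKM in mutants, a log2 difference of 0.85 ± 0.28 (SE; limma adjusted p = 0.927; exact permutation p = 0.0286, two-sided). Rps27 had 1000.4, 693 and 387 FPKM in controls and 1384, 1203, 1422 and 769.7 FPKM in mutants, with overlap and the same log2 difference of 0.85. With 1 library left out Rps28 ranged from 0.55 to 1.06 and Rps27 from 0.48 to 1.16. Rpl35a and Rpl27a followed at 0.62 and 0.55. At the other end, Rpl3, a large-subunit protein that reaches towards the peptidyl transferase centre, had 88.5, 102 and 101 FPKM in controls and 88.2, 78.8, 52.1 and 81.8 FPKM in mutants (log2 difference -0.39). Rpl8 and Rps4x differed by -0.38 and -0.35. With 1 library left out Rpl3 ranged from -0.47 to -0.22, Rpl8 from -0.52 to -0.20 and Rps4x from -0.47 to -0.25.

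Short members lay above long ones in this comparison. The split was made at the median coding length of 462 nt, after values were seen. Of 40 members at or under that length 36 were positive, with a median of 0.23, and of 40 longer ones 19 were positive, with a median of -0.02. Other protein-coding genes on either side of that length had a median of -0.07 each, and the abundant ones (the same limit as above) -0.04 over 88 short and 0.02 over 637 long genes. The stalk proteins Rplp1 and Rplp2 are short and differed by 0.33 and 0.32, while the longer Rplp0 differed by -0.25. Leaving out the low control library (replicate 3) took the family median to -0.09, and leaving out the high first mutant library to -0.0068. The other settings of this kind gave values up to 0.23, so the sign rested on those libraries.

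In H19DMD non-mesenchymal cells, 0 of 81 members passed the test, against 0.0677% of all 16239 genes. The smallest adjusted p was 0.892, and 1 member had an unadjusted p under 0.05 (5.35% of all genes). The median log2 difference was 0.20, against 0.05 over all genes, with 70 members positive. Groups did not overlap for 2 members, Rpl32 and Rps3a, both higher (3.47% of all genes), and for none lower (2.2% of all genes). Without the low first control library the median of the family was -0.03. It was 0.14 with median-ratio scaling and 0.26 with libraries scaled to their protein-coding sum.

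Rps3a, a small-subunit protein at the mRNA exit side, had 139, 127 and 143 FPKM in controls and 211, 174, 175 and 189 FPKM in mutants, a log2 difference of 0.45 ± 0.14 (SE; limma adjusted p = 0.892). Rpl32 had 554, 878 and 816 FPKM in controls and 1017, 934, 894 and 972 FPKM in mutants (0.37 ± 0.20, SE). The most positive were Rps15a (0.55), the paralogue Rps27l (0.51) and Rps27 (0.48), all with overlap. With 1 library left out these ranged from 0.02 to 0.88, 0.05 to 0.88 and 0.12 to 0.73, respectively. Rpl27a had the most negative difference, -0.36, from 75.5, 85.9 and 101 FPKM in controls against 90.2, 52.5, 73.0 and 59.5 FPKM in mutants. It was followed by Rplp1 and Rpl13a at -0.10 each. With 1 library left out Rpl27a ranged from -0.50 to -0.24, while Rplp1 (-0.37 to 0.10) and Rpl13a (-0.52 to 0.26) changed sign. Erythroid genes summed to 142 to 1508 FPKM in these mutants and 114 to 373 FPKM in controls, with none past the threshold (list median 1.59, 6 of 6 positive). Endocrine genes summed to 11046 to 20320 FPKM in mutants and 19670 to 29796 FPKM in controls (list median -0.35, 2 of 10 positive, none past the threshold). Ductal markers were positive in 6 of 6 (median 0.30), mesenchymal ones in 6 of 7 (0.22), acinar ones in 1 of 9 (-0.20), leukocyte ones in 2 of 6 (-0.65), neural ones in 1 of 5 (-0.23) and endothelial ones in 2 of 6 (-0.18), none past the threshold. The part of these cell types in the values was not tested.

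**Figure D4:**
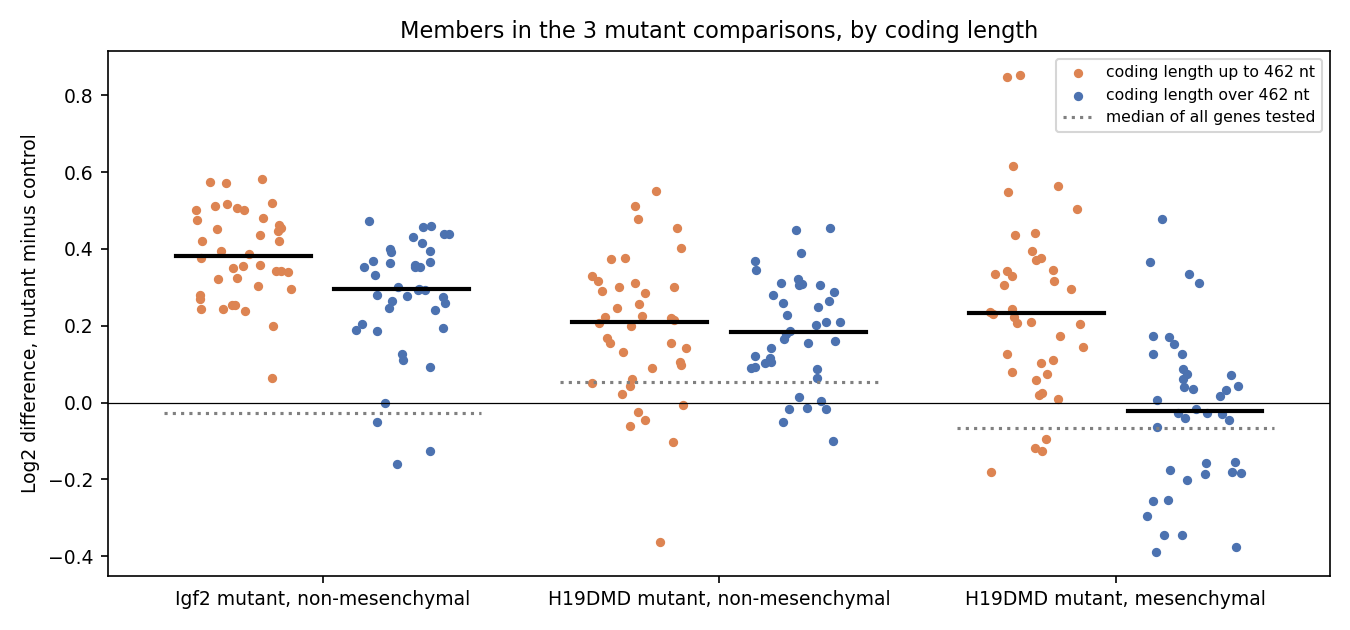
Log2 difference, mutant minus control, of the 80 tested members with an annotated coding length in the 3 mutant comparisons, split by coding length at 462 nt, with the median of each class (black bars) and of all genes tested (dotted). Short and long members have medians of 0.38 and 0.29 in Igf2 mutants, 0.21 and 0.18 in H19DMD non-mesenchymal cells, and 0.23 and -0.02 in H19DMD mesenchymal cells, and no member passed the test.

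Mesenchymal and non-mesenchymal cells were then compared within each H19DMD genotype, to see how the family differs between the fractions. In controls, 1 of 81 members passed the test, Rpl27a, which was lower in mesenchymal cells, against 10.3% of all 16732 genes that were lower and 12.4% that were higher. At an unadjusted p under 0.05 there were 4 members (34.2% of all genes). The median log2 difference, mesenchymal minus non-mesenchymal, was -0.30 against 0.08 over all genes, and 71 members were negative. With libraries scaled to their protein-coding sum the median was 0.07, Rpl27a was no longer called and 1 other member, Rpl7a, was called higher (0.60, adjusted p = 0.0259). With single libraries left out the median was -0.55 to -0.10. Groups did not overlap for 5 members, all lower (Rpl36, Rps7, Rpl27a, Rps9 and Rps26; 17.4% of all genes), and for none higher (22.4% of all genes).

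Rpl27a had 60.1, 50.6 and 53.1 FPKM in control mesenchymal cells and 75.5, 85.9 and 101 FPKM in control non-mesenchymal cells. It fell by 0.67 on the log2 scale (SE 0.18; limma adjusted p = 0.043), while the exact permutation p was 0.1 (two-sided), the smallest 3 against 3 libraries can give. The call held in 7 of the 16 alternative settings, with adjusted p values from 0.0108 to 0.297. Rpl36 was just outside, at a log2 difference of -0.74 and an adjusted p of 0.05 after rounding. It was called in 4 of its 16 alternative settings, among them median-ratio scaling (-0.87). The most negative members were Rpl13a (-0.84) and Rps29 (-0.83), with overlapping groups, followed after Rpl36 by Rpl38 (-0.71), Rps16 (-0.68), Rps7 (-0.67) and Rps27 (-0.66). With 1 library left out Rpl13a ranged from -1.26 to -0.48, Rps29 from -1.10 to -0.49, Rpl38 from -0.94 to -0.45, Rps16 from -1.03 to -0.41 and Rps27 from -1.02 to -0.29. Rpl13a passed the test without the low first control non-mesenchymal library (limma adjusted p = 0.035). The most positive were Rpl7a (0.23), Rps4x (0.19), Rpl9 (0.15) and Rpl8 (0.15), with ranges of 0.10 to 0.33, 0.08 to 0.33, -0.11 to 0.33 and 0.08 to 0.24 in that order.

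In mutants, 14 of 81 members (17.3%) were lower in mesenchymal cells and none was higher, against 15.1% lower and 13.5% higher among all 16767 genes, so the share that fell is near the background. The share with an unadjusted p under 0.05, 32 members or 39.5%, was near that of all genes too, 39.1%. The direction was one-sided: 78 of 81 members were negative, with a median of -0.38 against -0.03. Groups did not overlap for 22 members (27.2%), all lower, against 16.6% of all genes lower and 14.4% higher. The median was -0.37 for the large and -0.38 for the small subunit. This description of direction was not tested as a property of the list, and with libraries scaled to their protein-coding sum the median was -0.15 and 1 member was called.

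Large-subunit members made up 8 of the 14. Rpl32 (chromosome 6, 115805505 to 115808747, minus strand) had 728, 602, 487 and 487 FPKM in mesenchymal and 1017, 934, 894 and 972 FPKM in non-mesenchymal mutant cells. It fell by 0.75 on the log2 scale (SE 0.17; limma adjusted p = 0.0114) and was called in each of its 18 alternative settings. Rpl3 (chromosome 15, 80077791 to 80091868, minus strand) had 88.2, 78.8, 52.1 and 81.8 FPKM against 109, 140.0, 119.9 and 169 FPKM, and fell by 0.84 (SE 0.21; adjusted p = 0.0202), a call held in 14 of 18 settings. Both groups were apart for these genes. Rpl18 (chromosome 7, 45715457 to 45720836, plus strand) had 340.0, 191, 179 and 249.9 FPKM against 417, 379.7, 392 and 475 FPKM, and fell by 0.83 (SE 0.22; adjusted p = 0.0226), held in 13 of 18. Rpl15 and Rpl17 fell by 0.61 and 0.51, with adjusted p values of 0.0498 and 0.0348. Rpl15 is the only called member whose groups overlapped.

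The scaffold of the stalk, Rplp0 (chromosome 5, 115559467 to 115563727, plus strand), also fell, while Rplp1 and Rplp2 did not pass; the difference between these genes was not tested. Rplp0 had 100.2, 88.1, 72.2 and 85.2 FPKM in mesenchymal and 143, 161, 103 and 147 FPKM in non-mesenchymal mutant cells, a fall of 0.67 (SE 0.18; limma adjusted p = 0.0244). That call held in 10 of 18 alternative settings, with adjusted p values from 0.0077 to 0.138. Rplp2 had 298, 327, 271 and 228 FPKM against 442, 392, 354 and 368 FPKM, without overlap (-0.48 ± 0.16, SE; adjusted p = 0.0523). Rplp1 had 186, 149, 134 and 136 FPKM against 177, 139, 121 and 178 FPKM, a log2 difference of -0.02 ± 0.18 (SE). In controls the 3 differed by -0.07, -0.54 and -0.45 in the order Rplp0, Rplp2, Rplp1, none past the threshold.

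In the small subunit, Rps10 had 151, 105, 93.0 and 127 FPKM in mesenchymal and 152, 185, 189 and 237 FPKM in non-mesenchymal mutant cells, and fell by 0.68 (limma adjusted p = 0.0356), a call held in 8 of 18 alternative settings, with adjusted p values from 0.019 to 0.104. Rps3, which lines the mRNA entry channel, had 134, 123, 133 and 113 FPKM against 176, 169, 166 and 165 FPKM, the tightest of the called members (a fall of 0.42, SE 0.12; adjusted p = 0.0266). Rps13, Rps18 and Rps9 fell by 0.62, 0.61 and 0.55, with adjusted p values of 0.046, 0.0289 and 0.0283. Rps6 differed by -0.40 ± 0.16 (SE; adjusted p = 0.101). Rpsa had 48.7, 50.0, 42.0 and 42.1 FPKM against 45.0, 44.1, 45.9 and 44.6 FPKM, a difference of 0.02 ± 0.12 (SE), with a 95% interval from -0.26 to 0.30. Rpl27a (0.25) and Rps28 (0.18) were the other positive members, and Rpl41 (-0.03), Rpl31 (-0.05), Rps2 (-0.06) and Rps27a (-0.09) were close to 0.

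**Figure D5:**
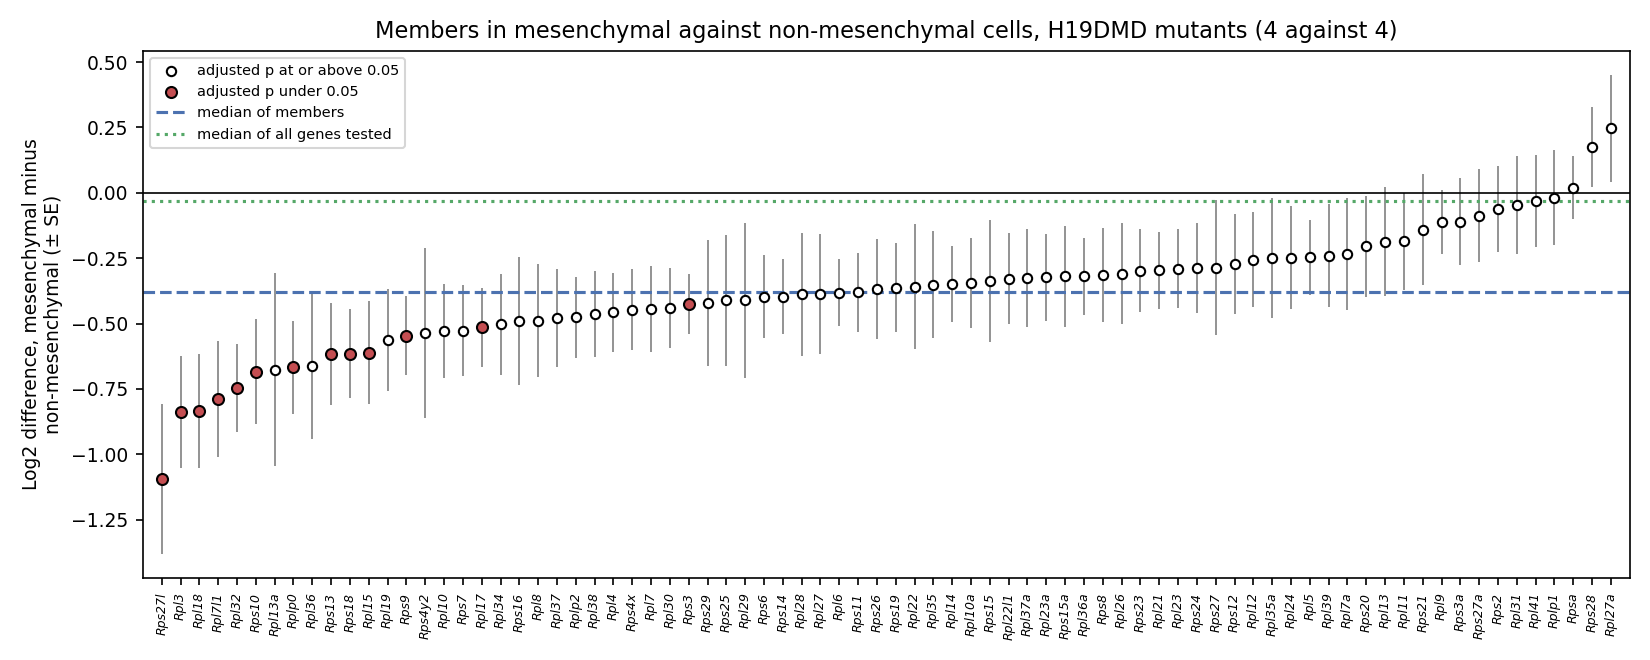
Log2 difference, mesenchymal minus non-mesenchymal, of 78 tested members in H19DMD mutants, ordered, with SE bars and the 13 called members among them filled. Nearly all members lie below 0, and Rpl27a, Rps28 and Rpsa are the members above it.

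Several called values have limits of their own. The number called was 2 without the second or without the fourth mutant non-mesenchymal library, and 28 without the first mutant mesenchymal library. The share of all genes called without these libraries is not given here. Whether the counts follow the background was therefore not tested. The position deposited for Rpl18, Rpl15, Rps18 and Rpl7l1 runs over 1 kb past the annotated gene, so fragments of a neighbouring gene may be included. This holds for 19 members in all, among them Rpl24, whose row carries the identifier of Zbtb11. Genes outside the family that were short and abundant by the same limits had a median of -0.38 over 99 genes in controls, with 25.3% positive. In mutants it was -0.41 over 98 genes, with 26.5% positive. Long abundant ones had 0.05 over 497 genes (54.1% positive) and 0.02 over 503 (51.9% positive). Among members, short and long ones had -0.39 and -0.20 in controls, and -0.34 and -0.40 in mutants. Acinar genes took 0.16 to 0.48% of the protein-coding FPKM of mutant mesenchymal libraries and 11.4 to 15.3% of that of non-mesenchymal ones. The part of length and of the acinar share in these values was not tested.

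Measured against the family's own median in each library, few members stood apart. In controls 0 of 81 did, against 17.7% of all genes. In mutants Rpl18 and Rpl32 differed from that median, at -0.53 (limma adjusted p = 0.04) and -0.44 (adjusted p = 0.046), against 10.9% of all genes lower, and none was higher (19.8% of all genes). Neither was called with no variance trend, with no filter on low genes, or with any 1 library left out except the first mutant mesenchymal one. Without the first mutant non-mesenchymal library the only call was 1 higher member.

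Of the 14 members lower in mutants, 13 were also negative in controls, where none passed the threshold. That difference between genotypes was tested directly as the interaction, the mutant effect in mesenchymal cells minus that in non-mesenchymal cells. None of 81 members passed (0.0117% of all 17105 genes did), with a smallest adjusted p of 0.755 and a median of -0.09 against -0.11 over all genes. That median was 0.04 with median-ratio scaling, -0.24 with libraries scaled to their protein-coding sum and -0.29 to 0.11 with 1 library left out. At an unadjusted p under 0.05 there were 5 members (6.35% of all genes). Rpl27a had the most positive value, 0.91 ± 0.28 (SE): in mesenchymal cells it was 60.1, 50.6 and 53.1 FPKM in controls and 87.5, 90.8, 63.2 and 82.0 FPKM in mutants, and in non-mesenchymal cells its mean was lower in mutants, as given above. Rps28 and Rps21 followed at 0.61 and 0.47, with ranges of 0.31 to 1.11 and 0.24 to 0.71 when 1 library was left out. Rpl3 had the most negative, -0.84 ± 0.29 (SE), before Rpl8 (-0.64) and Rps4x (-0.63).

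The paralogues were read at their own levels. Rps27l, a p53-responsive relative of Rps27, had 52.5, 42.2, 65.6 and 25.7 FPKM in mesenchymal and 90.8, 106, 113 and 75.7 FPKM in non-mesenchymal mutant cells. The groups were apart, and the fall of 1.09 (SE 0.29; limma adjusted p = 0.0224) was the largest of the 81 members and was called in 13 of 18 alternative settings. In controls Rps27l had 42.4, 55.1 and 44.6 FPKM against 34.6, 75.6 and 111 FPKM, with overlap (-0.49 ± 0.43, SE). As a share of Rps27 it was 3.81 ± 0.57% (SD, n = 4) in mutant mesenchymal and 6.90 ± 1.77% (SD, n = 4) in mutant non-mesenchymal cells, 7.91 ± 3.64% and 6.76 ± 2.36% (SD, n = 3 each) in the matching controls, and 4.87 ± 0.30% (SD, n = 4) and 4.22 ± 0.74% (SD, n = 3) in controls and mutants of the Igf2 model. The narrowest group was the Igf2 controls, where the share spanned 4.55 to 5.25%.

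Rpl22l1, the paralogue of the RNA-binding protein Rpl22, had group means from 17.8 ± 4.35% of Rpl22 (SD, n = 3) in Igf2 mutants to 26.0 ± 4.94% (SD, n = 3) in H19DMD control non-mesenchymal cells. Single libraries of H19DMD control mesenchymal cells spanned 11.4 to 34.1%. Rpl7l1, a relative of Rpl7, was at 4.68 FPKM on average in the H19DMD table against 147 FPKM for Rpl7. It fell by 0.79 in mesenchymal cells of mutants (adjusted p = 0.0304; held in 8 of 17 alternative settings, with adjusted p values from 0.018 to 0.17), from 6.18, 8.43, 4.46 and 5.26 FPKM in non-mesenchymal to 3.39, 3.16, 3.37 and 2.26 FPKM in mesenchymal cells. Rps4y2 averaged 4.38 FPKM against 406 FPKM for Rps4x, from which reads of such a copy may not be told apart.

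Other genes of the translation machinery were taken from lists. In the fraction comparison of mutants, 7 of 34 translation initiation and elongation factors were lower and none was higher, with a median of -0.32, against 15.1% lower and 13.5% higher among all genes. Of the 7, 6 belong to initiation factor eIF3, which holds the small subunit before joining, and all 12 tested eIF3 genes were negative with a median of -0.62. Grouping by eIF3 was done after values were seen. The largest were Eif3k (-0.98) and Eif3l (-0.80). In controls none of the 34 passed (median -0.08), and 9 of 12 eIF3 genes were negative. Of the 4 cytosolic ribosomal proteins with other names, Rpl36al was lower in both genotypes (-1.17 in controls and -0.90 in mutants).

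Mitochondrial ribosomal protein genes had 6 of 76 lower and none higher in mutants (median -0.30), a smaller share lower than the 15.1% of all genes, led by Mrpl44 (-1.47) and Mrpl34 (-1.41), and 3 lower and 1 higher in controls (median -0.09). Ribosome biogenesis genes had 2 of 41 lower and 1 higher in mutants (median -0.23), below the shares over all genes (15.1% lower and 13.5% higher), among them Bysl, a factor of small-subunit assembly, at 1.40. Bysl was also higher in controls (1.09), where Ncl, the nucleolar protein nucleolin, was lower (-0.54). These were the only calls of that list in controls, where 12.4% of all genes were higher and 10.3% lower. In the mTORC1 pathway 4 of 26 genes were higher and 5 lower in mutants, and 3 higher and 2 lower in controls, near the same shares over all genes. Irs1, the adaptor of the insulin and IGF1 receptors, was higher in mesenchymal cells of both (3.13 in mutants and 2.67 in controls), as was Akt2 (0.98 and 1.36), and Deptor, an inhibitor of mTOR, was lower (-2.41 and -2.01). None of these lists had a gene past the threshold in a mutant comparison or the interaction, where list medians lay between -0.29 and 0.32.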

How the data were processed

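RNA was amplified from 2 ng per sample (Ovation RNA-seq V2, per the labels' protocols) and sequenced as single reads. The authors deposited FPKM values per gene in 1 table per model, as given per the file headers. TopHat2 2.0.8, Cufflinks 2.2.1 and GRCm38 are named in the submitters' processing notes. The use of strand, the handling of reads that fit several places and any scaling between libraries are not given in the sources used here, and absolute depth is unknown. Of 31 labelled samples, 21 have values and 10 were not analysed here. A further 8 columns without values were not used.

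Tests used limma 3.58.1 in R 4.3.3 (lmFit, eBayes with a variance trend, two-sided) on log2(FPKM + 1), which understates changes of low genes. Testing needed a mean of 1 FPKM across the compared libraries, and p-values were adjusted over all of them (Benjamini-Hochberg, threshold 0.05). Only the groups compared entered a fit. Exact permutation tests (scipy 1.17.1) are given for single genes. The procedure was tested on simulated data. Against the family median, each library was shifted to the same median of members. Named by rule were members past the threshold in a mutant comparison, the 3 highest and 3 lowest differences of each mutant comparison, the 8 of each fraction comparison, the 6 highest and lowest levels, paralogue pairs, the stalk proteins, Rpsa and Rps6. Of the list genes outside the family, up to 2 in each direction were named. Rps3, Rps9, Rps13, Rps18, Rps26, Rpl15 and Rpl17 in the fraction comparisons and Rplp2, Rps3a and Rpl32 without overlap were named after their values were seen. Single values of a few genes are not reported here, though they are in the counts. The members and lists were chosen with earlier results of these data known. Alternatives were another pseudocount, other filters, 3 other scalings, protein-coding genes only, no trend, all groups in 1 fit, a replicate block and each library left out.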

Additional observations from a re-analysis of the deposited data

Results flagged for a closer look

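In groups of 4 libraries, 5 values stood far from the other 3 by Dixon's criterion, of 105 examined, where chance gives about 1 in 20 or 5.25. Rpl27a had 69.4 FPKM in the third Igf2 control (others 133 to 138), and Rplp1 had 349 FPKM in the same library (others 411 to 416). In the second Igf2 control Rpl13a had 877 FPKM (others 658 to 692) and Rpl31 had 329.5 FPKM (others 205 to 223). In the first H19DMD mutant non-mesenchymal library Rps16 had 252 FPKM (others 183 to 190.1).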

How the results depend on the processing

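Of 248 summary values recomputed under alternatives, 209 stayed within the set limits, and of 962 values of named members 39 changed sign, 50 lost a call and 8 gained one. In each mutant comparison and the interaction no member was called under any alternative. The causes of the changes were not tested.

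With libraries scaled to their protein-coding sum, the family median was 0.054 in the Igf2 comparison, 0.072 in the fraction comparison of controls and -0.15 in that of mutants, where 1 member was called, and the summed level of H19DMD mutant non-mesenchymal cells was 22387 FPKM. Under that scaling Rps27a (0.14), Rps2 (0.17), Rpl31 (0.18), Rpl41 (0.20) and Rplp1 (0.21) changed sign in mutants. Under family-median scaling they were at 0.22, 0.25, 0.26, 0.28 and 0.29, which that scaling gives by construction to members between the family median and 0. The median stayed within the set limits but neared 0 in H19DMD mesenchymal cells (0.00046), and under median-ratio scaling it was 0.041 in the interaction. In controls Rps3a (-0.10), Rps4y2 (-0.057) and Rpl13 (-0.027) changed sign under median-ratio scaling.

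Against 1 call in controls there were 2 with a pseudocount of 0.1, 3 with median-ratio scaling, 2 with protein-coding genes only, 4 with all groups in 1 fit, and 0 with family-median scaling and with no variance trend. Protein-coding-sum scaling gave 1, of another member and in the other direction (Rpl7a, 0.60). Against 14 calls in mutants there were 2 with family-median scaling, 22 with protein-coding genes only and 8 with no trend. Against the family median, 5 were called with protein-coding genes only, and 0 with no filter or no trend. Shares of all genes called under any alternative are not given here, so whether member counts follow them was not tested.

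Correlations of same-numbered deviations were all under 0.1, and between fractions all were positive, from 0.0074 to 0.067. The same number was the best match in some pairs and not in others. The labels do not state whether same-numbered libraries share animals, so pairing remains undecided. The main fits treat libraries as independent. A replicate block called 0 members in controls and 8 in mutants.

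Leaving out 1 library gave 0 to 3 calls in controls, 2 to 28 in mutants and 0 to 2 against the family median in mutants. The median ranged from 0.21 to 0.42 in the Igf2 comparison, -0.09 to 0.23 in H19DMD mesenchymal and -0.03 to 0.33 in non-mesenchymal cells, -0.29 to 0.11 in the interaction, -0.55 to -0.10 between fractions in controls and -0.47 to -0.31 in mutants. Signs changed for Rpl7l1 (-0.29 to 0.048) and Rpl6 (-0.28 to 0.093) in the Igf2 comparison, and for Rplp1 (-0.37 to 0.10) and Rpl13a (-0.52 to 0.26) in H19DMD non-mesenchymal cells. Between fractions they changed in controls for Rps3a (-0.15 to 0.20), Rps4y2 (-0.35 to 0.28), Rpl13 (-0.075 to 0.21) and Rpl9 (-0.11 to 0.33), and in mutants for Rps27a (-0.21 to 0.0019), Rps2 (-0.19 to 0.0055), Rpl31 (-0.13 to 0.069), Rpl41 (-0.12 to 0.081), Rplp1 (-0.13 to 0.057) and Rpsa (-0.024 to 0.058). The fit of all groups applied to neither the Igf2 comparison, whose table has 2 groups, nor the interaction, which already uses all 4. Depth is unknown, so its part in these limits cannot be given.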
